A study of Ambystoma mexicanum with 2 samples.

Results

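miR-21 was examined here entry by entry and arm by arm in small RNA of the tail of the Mexican axolotl. The members are the mirBase entries whose family label is exactly miR-21, which are 41 of the 9277 known entries with reads, from 32 species prefixes. Of these, 14 have names that end with the arm 5p, 9 with the arm 3p and 18 carry no arm. The control library was made from uninjured tail tissue that had never regenerated, and the blastema library from tail tissue at 3 days post injury, after amputation. Tissue of 20 mature animals was pooled, so each condition is 1 pool and 1 library. With 1 library for each condition there is no replicate error, so the conditions were compared without any test or p-value. The deposited counts add up to 12613931 control and 9952885 blastema reads, which are the totals behind every share. Intervals are at the 95% level and take in counting error alone, with each read counted as independent. Reads copied by PCR do not stand for separate molecules, so the intervals can be too narrow even for that error.

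microRNAs are short RNAs that guide Argonaute proteins to messenger RNAs, mainly through the seed, bases 2 to 8 from the 5′ end, and lower the output of their targets. The hairpin precursor of a microRNA has 2 arms. The 5p product of miR-21 is the abundant guide in vertebrates, and the 3p product comes from the opposite arm of the hairpin and is usually rare. miR-21 is known in mammals for its rise in wounds, fibrosis and tumours, where PDCD4 and SPRY family messages are among its targets. In mammals its gene lies at the end of VMP1, a gene of autophagy.

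mirBase sequences were not used here, so the 41 entries are given by name. Sequences can be shown for the reads that did not map to mirBase and that the deposited table lists with a partial homology to miR-21. These 38 families hold 358 sequences of 20 to 23 nucleotides. The largest, amex-miR-pn665, is shown first because it held most of the reads, with bases 2 to 8 in capitals.
amex-miR-pn665: aTAGCTTAtcagactgatgttga
amex-miR-pn1921: aTAGCTTAtcagactgatgtt
Both sequences start at the same base and differ in length at the 3′ end. The mature 5p product of vertebrates is known to begin at the second base of these sequences, so the bases in capitals are not its seed but the stretch that starts at its first base. The 3 families that follow resemble the 3p product, and capitals mark the 16 bases they share.
amex-miR-pn155: AACAACAGTCGGTAGGctaaa
amex-miR-pn156: cAACAACAGTCGGTAGGctgtct
amex-miR-pn2189: cAACAACAGTCGGTAGGttttt
They start within 1 base of each other and differ mainly after the shared stretch.

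All 41 entries together held 30904 control reads and 549905 blastema reads. As a share of all reads this was 0.245% (0.242 to 0.248) for the control and 5.53% (5.51 to 5.54) for the blastema. The log2 ratio compares the share of the blastema with that of the control after adding 0.5 read to both counts, and was 4.50 (4.48 to 4.51). Most abundant labels had a larger share in the blastema, and the median log2 ratio of the 197 labels with at least 1000 reads was 2.08. miR-21 lay 2.41 above that median on the log2 scale, a difference that no choice of library total alters. The libraries also differed in the labels of single tissues. The 16 labels of differentiated muscle, which are those of miR-499, miR-208, miR-206, miR-133 and miR-1, made up 67.4% of control and 14.3% of blastema reads. Of these 16 labels, 1 had its larger share in the blastema. The shares of leukocyte labels were 0.0256% and 0.260%, those of epidermal labels 0.200% and 2.09%, those of neural labels 0.0884% and 0.265%, those of erythrocyte labels 0.00166% and 0.0103% and those of endothelial labels 0.00135% and 0.00335%. Of the marker labels other than muscle, 1 was at 0 in a library, among the 4 of erythrocytes, and each had its larger share in the blastema. A larger share there was common, as 82.7% of the 197 labels were higher by 2-fold or more and 6.6% lower by as much. The marker labels had no minimum of reads. The part of these cell types in the miR-21 result was not tested, and in pooled tissue more cells with a microRNA and more of it per cell cannot be told apart.

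The reads were divided over the entries in 4 classes, which were set after their values were seen. A set of 20 entries, 11 of 5p and 9 without an arm, had almost the same counts and are called the near-equal set. It was defined by more than 900 and fewer than 1200 control reads, which bounds its spread in the control. Blastema reads were not part of this rule. Their reads ranged from 978 to 1113 in the control, with a mean of 1036 and an SD of 36.4 over entries, and from 11311 to 11926 in the blastema, with a mean of 11620 and an SD of 161. The square root of the mean, which is the SD that independent counting around 1 value gives, was 32.2 and 108. Entries of species as distant as the human (hsa-miR-21-5p, 1021 and 11811 reads), the chicken (gga-miR-21-5p, 1049 and 11474) and the platypus (oan-miR-21-5p, 990 and 11639) were among them. How reads that match several entries were counted is not stated in the sources used here, so these 20 cannot be taken as independent measurements. Their log2 ratios ran from 3.73 to 3.91, and summed they gave 3.83 (3.81 to 3.85).

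Another 4 entries, the high-count entries, had more reads than any of these. The goat entry chi-miR-21-5p had 4509 control reads and 172998 blastema reads, the most of all miR-21 entries in both libraries. The Tasmanian devil entry sha-miR-21 had 2261 control reads and 65078 blastema reads. The cattle entry bta-miR-21-5p had 1530 control reads and 39542 blastema reads. These entries were above the near-equal set in the control, which follows from the class limit of 1200 control reads, and further above it in the blastema. The sheep entry oar-miR-21 was the lowest of the 4, with 1429 control reads and 32577 blastema reads. The log2 ratio was 5.60 (5.56 to 5.65) for chi-miR-21-5p, 5.19 (5.13 to 5.25) for sha-miR-21, 5.03 (4.96 to 5.11) for bta-miR-21-5p and 4.85 (4.78 to 4.93) for oar-miR-21, in the same order as their reads. Summed, the 4 entries gave 5.34 (5.31 to 5.37). This is 1.51 (1.47 to 1.54) above the near-equal set on the log2 scale, or 2.84-fold, a difference larger than the counting error in which the library totals cancel.

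**Figure D1:**
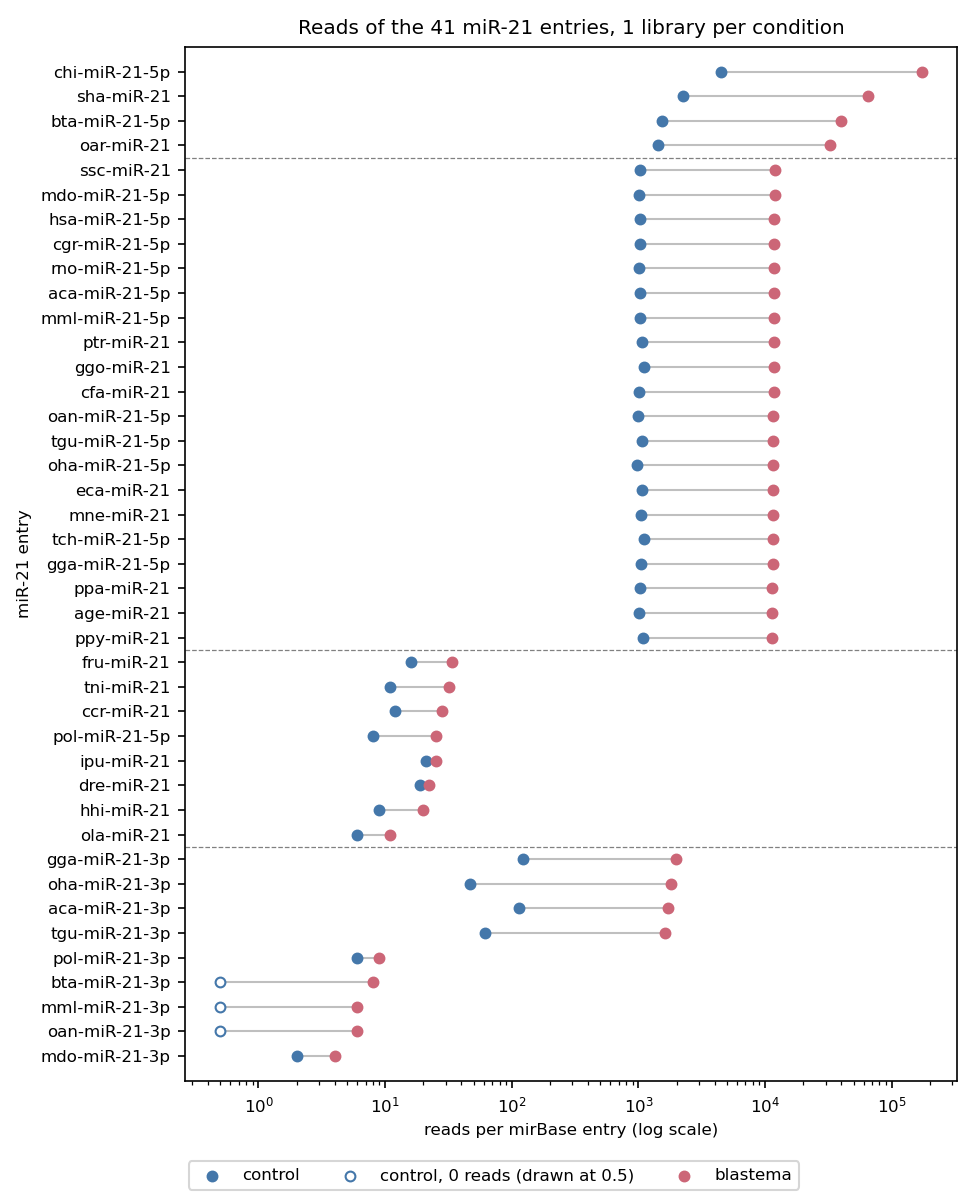
Reads of each of the 41 miR-21 entries in the control (blue) and blastema (red) library, on a log axis, with dashed lines between the 4 classes of entries. The 20 near-equal entries form straight columns near 1036 and 11620 reads, chi-miR-21-5p reaches 172998 blastema reads, and the 3p entries with 0 control reads, 3 in number, are drawn as open circles at 0.5.

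The makeup of the miR-21 reads therefore differed between the libraries. The 4 high-count entries held 31.5% (30.96 to 32.00) of the miR-21 reads of the control and 56.4% (56.3 to 56.5) of those of the blastema. The 20 near-equal entries held 67.0% and 42.3%. chi-miR-21-5p alone went from 14.6% (14.2 to 15.0) to 31.5% (31.3 to 31.6) of the miR-21 reads, and each of the 20 near-equal entries held a smaller part in the blastema, between 2.06% and 2.17%, than in the control, where they ran from 3.16% to 3.601%. These parts need no library total.

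**Figure D2:**
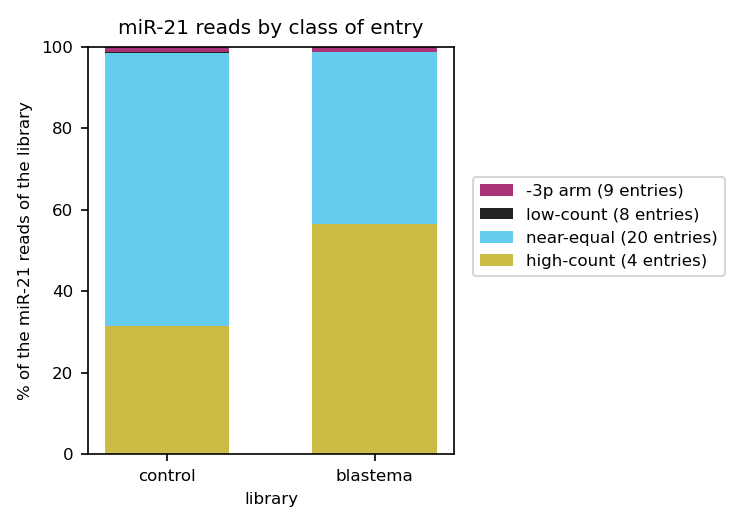
Percent of the miR-21 reads of each library in the 4 classes of entries, as stacked bars from 0 to 100%. The high-count entries take 31.5% of the control bar and 56.4% of the blastema bar, while the 3p and low-count entries are thin bands at the top.

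The remaining 8 entries of 5p or without an arm had few reads and are called low-count entries, with 6 to 21 of the control library and 11 to 34 of the blastema library. All of them carry prefixes of bony fish. The zebrafish entry dre-miR-21 had 19 control reads and 22 blastema reads, and the channel catfish entry ipu-miR-21 had 21 and 25. The pufferfish entry fru-miR-21 had 16 and 34 and the olive flounder entry pol-miR-21-5p 8 and 25. In all, these 8 entries held 102 control reads and 197 blastema reads, a log2 ratio of 1.29 (0.94 to 1.63). Relative to the median of all known entries their ratio was -0.82, which no scaling changes. The direction of the unadjusted ratios does depend on the scaling, which shifts all entries alike, and with TMM these 8 were below 0. Relative to the near-equal set it was -2.54 (-2.886 to -2.196).

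By arm, the 5p entries had 17334 control reads and 340920 blastema reads and the entries without an arm had 13217 and 201878. For the 3p entries these were 353 and 7107. The log2 ratio was 4.64 (4.62 to 4.66) for 5p, 4.67 (4.52 to 4.83) for 3p and 4.27 (4.25 to 4.30) for entries without an arm. The 3p and 5p ratios differed by 0.03 (-0.12 to 0.19), an interval that includes 0 and leaves room for a difference of up to 0.19. The entries without an arm were 0.36 (0.33 to 0.40) below the 5p entries. Within the near-equal set, where both kinds are present, the difference was 0.044 (0.003 to 0.085). These entries cannot be taken as independent, so this interval can be too narrow and does not establish a difference. chi-miR-21-5p is among the 5p entries, and 7 of the 8 low-count fish entries carry no arm. Without chi-miR-21-5p the 5p entries gave 4.05, below the 4.27 of all entries without an arm. Those without an arm gave 3.98 when sha-miR-21, their entry with the most reads, was left out. The direction of this difference thus turned when chi-miR-21-5p alone was left out, but not when the top entry of both kinds was. Its size depends on single entries.

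Among reads with an arm in the name, 3p made up 2.00% (1.79 to 2.21) of the control and 2.04% (2.00 to 2.09) of the blastema. The result depended on which 5p entries were taken. With chi-miR-21-5p and bta-miR-21-5p left out of the 5p reads, a choice made after the values were seen, the 3p share came to 3.03% of control and 5.25% of blastema reads of both arms. The 3p log2 ratio minus that of the near-equal set was 0.84 (0.687 to 0.997), and minus that of the high-count entries it was -0.67 (-0.82 to -0.51). Over the 56 labels with at least 100 reads of each arm, the 3p share had a median of 64.4% for the control library and 62.6% for the blastema library. Of these labels, 1 had a smaller 3p share in the blastema than miR-21. The minimum leaves out labels in which either arm had few reads, so the medians and this rank hold for the 56 labels alone. The log2 change of 3p over 5p had a median of -0.24 and quartiles of -0.77 and 0.48 over these labels, with that of miR-21 larger than in 35 of them and smaller than in 20.

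The 3p reads sat almost entirely in 4 of the 9 entries, those of the birds and reptiles. The chicken entry gga-miR-21-3p had 123 control reads and 1962 blastema reads, and the green anole entry aca-miR-21-3p had 114 and 1711. The zebra finch entry tgu-miR-21-3p had 61 control reads and 1609 blastema reads, and the king cobra entry oha-miR-21-3p had 47 and 1792. These 4 held 345 of the 353 control reads of the arm, or 97.7%, and 7074 of the 7107 blastema reads, or 99.5%. In the blastema they ran from 1609 to 1962 reads, while in the control oha-miR-21-3p and tgu-miR-21-3p were lower than the other 2. Their log2 ratios were 5.58 (5.16 to 5.995) for oha-miR-21-3p, 5.05 (4.68 to 5.42) for tgu-miR-21-3p, 4.33 (4.07 to 4.59) for gga-miR-21-3p and 4.24 (3.97 to 4.52) for aca-miR-21-3p. The first pair was 1.02 (0.68 to 1.35) above the second on the log2 scale. In that pair lay 31.3% (26.4 to 36.5) of the reads of the 4 entries in the control, against 48.1% (46.9 to 49.2) in the blastema. The pairs were formed with these counts in view. A higher ratio and a smaller control part for the pair with fewer control reads follow in part from that choice.

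The other 5 3p entries had at most 6 control reads and 9 blastema reads. The platypus entry oan-miR-21-3p, the macaque entry mml-miR-21-3p and the cattle entry bta-miR-21-3p had 0 control reads, which allows a control share of up to 2.38e-05%. bta-miR-21-3p had 8 blastema reads and the other 2 had 6 each. For these 2 entries the interval of the log2 ratio, from -0.11 to 8.19, includes 0, and for bta-miR-21-3p it ran from 0.31 to 8.54. mdo-miR-21-3p had 2 control reads and 4 blastema reads, and pol-miR-21-3p had 6 and 9, with intervals that include 0. Of the 9 prefixes with both arms, the 4 of birds and reptiles had a 3p share that ran from 4.59% to 10.5% in the control, against 12.1% to 14.6% in the blastema. Their 5p entries all belong to the near-equal set, whose entries cannot be taken as independent. Each share sets the 3p entry against only the 5p entry of its own prefix. Of all miR-21 reads, 3p made up 1.14% in the control and 1.29% in the blastema. For the prefix pol the share went from 42.9% in the control to 26.5% in the blastema, with 6 and 9 reads of 3p. For mdo it went from 0.198% to 0.0337%, and for bta, mml and oan from 0% to at most 0.0515%.

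**Figure D3:**
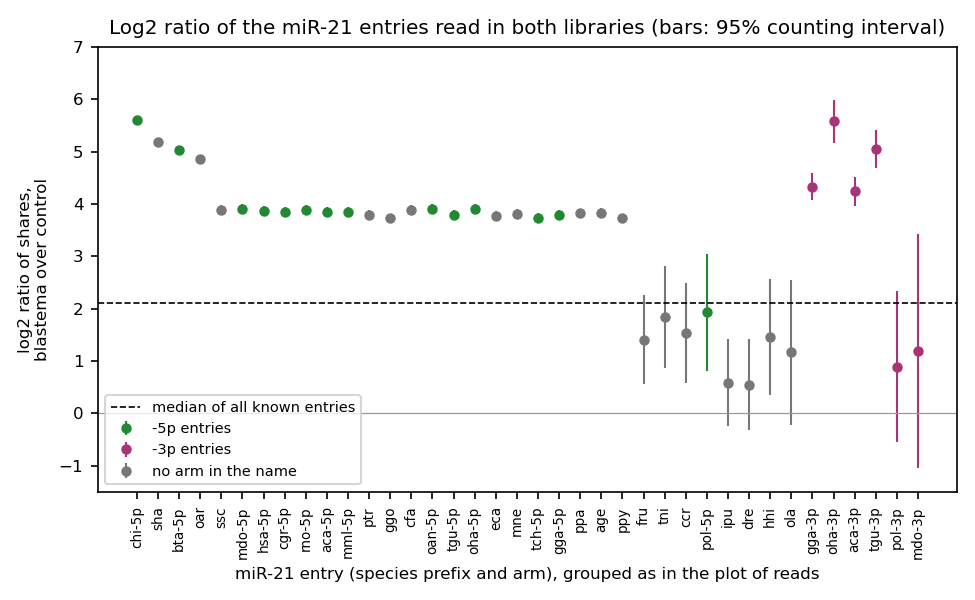
Log2 ratio of shares, blastema over control, for the 38 miR-21 entries with reads in both libraries, with 95% counting intervals as bars and the arm as colour. The 4 high-count entries run from 4.85 to 5.60, the near-equal set lies flat from 3.73 to 3.91, the fish entries lie below the dashed median of all known entries at 2.11, and the 3p entries of birds and reptiles lie between 4.24 and 5.58.

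A total of 37 entries had at least 10 reads over both libraries. Among them, 34 had a blastema share of 2-fold or more that of the control, 0 passed 2-fold in the other direction, and 3 lay in between, which were dre-miR-21, ipu-miR-21 and pol-miR-21-3p. No test was made here, so no call rests on these counts. The same held for 79.3% of all 6854 known entries of that size, while 4.9% were lower by 2-fold or more. The median log2 ratio was 3.84 for the miR-21 entries and 2.11 for all. At 4-fold or more, 28 miR-21 entries were higher and 0 lower, against 53.6% and 2.26% of all known entries. With at least 100 reads required, 28 of 28 were higher by 2-fold and 0 lower, against 77.8% and 9.22% of all. With TMM, 28 of the 37 were higher by 2-fold and 3 lower, against 27.5% and 19.9% of all. The 20 near-equal entries are among the higher entries in every count here and cannot be taken as independent. These counts and the median of 3.84 therefore do not measure agreement between separate entries.

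Entries of other labels lie close to miR-21. The label miR-21a had 1096 control reads and 12985 blastema reads, a log2 ratio of 3.91 (3.82 to 3.997). It holds the mouse entry mmu-miR-21a-5p, whose 990 control reads and 11613 blastema reads fall within the range of the near-equal set, and the salmon entry ssa-miR-21a-5p with 106 and 1372 reads. miR-21b had 17 control reads and 57 blastema reads, a log2 ratio of 2.06 (1.29 to 2.83).

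Among the 197 labels with at least 1000 reads, the 5 whose log2 ratio was nearest to that of miR-21 were miR5072-NA at 4.52, miR-8360 at 4.41, miR-31a at 4.29, miR-223 at 4.18 and miR-429 at 4.04. The likeness is the difference of log2 ratios between 2 libraries, from 0.03 for miR5072-NA to 0.46 for miR-429. Their reads were far fewer than those of miR-21, between 1016 and 31325 in the blastema. Of 10 microRNAs known from wounds and inflammation, 9 were higher in the blastema by 2-fold or more and 0 were lower by as much, against 82.7% and 6.6% of the 197 labels, so the count is near the general share. All 10 had a smaller log2 ratio than miR-21. Their median was 3.17, against 2.08 for the labels with at least 1000 reads. The list had no such minimum, so the count and the median are set beside labels chosen otherwise. miR-132, miR-146a and miR-146b had fewer than 1000 reads. The intervals of miR-146a at 1.19 (0.57 to 1.81) and miR-146b at 1.05 (0.51 to 1.58) reach below 2-fold. miR-223, a microRNA of neutrophils and other myeloid cells, had 531 control reads and 7579 blastema reads. miR-155, which activated immune cells express, had 154 and 1939, a log2 ratio of 3.99 (3.76 to 4.23). miR-31, which is known from skin wounds in mammals, had 1720 and 20895, a log2 ratio of 3.94 (3.87 to 4.02). miR-132 had 27 and 26 reads, with an interval of -0.48 to 1.06.

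Reads close to miR-21 that did not map to mirBase added to these values. The 38 families with a listed homology to miR-21 held 3460 control reads and 45706 blastema reads, which equal 11.2% and 8.31% of the reads of the miR-21 entries. All counts of unmapped sequences in the deposited table are even, while 22 control counts and 17 blastema counts of the 41 entries are odd, so intervals of families are given from counts divided by 2. The reason is not stated, and the percentages use the counts as deposited. If these counts exceed the reads, the 11.2% and 8.31% are too high. Each unmapped sequence in the table has at least 6 reads over both libraries, so one without control reads is listed only if it had that many in the blastema. Together the 38 families had a log2 ratio of 4.07 (3.99 to 4.14). amex-miR-pn665, with 97 sequences, had 2452 control reads and 40368 blastema reads, a log2 ratio of 4.38 (4.30 to 4.47), which is 1.77 above the median of all unmapped families. It held 70.9% (68.7 to 73.0) of the family reads in the control, against 88.3% (87.9 to 88.7) in the blastema. amex-miR-pn1921 had 142 control reads and 872 blastema reads, a log2 ratio of 2.96 (2.59 to 3.31). amex-miR-pn1295, shown here with the bases that differ from amex-miR-pn665 in capitals, had 86 and 424, a log2 ratio of 2.64 (2.16 to 3.10).
amex-miR-pn1295: agcttatAagaAtgatgGtga
The 3 families that resemble the 3p product had 50 control reads and 516 blastema reads in all, a log2 ratio of 3.70 (3.10 to 4.27), and are thus rarer than the 3p entries. amex-miR-pn155 had 30 and 298 of these reads, amex-miR-pn156 14 and 198, and amex-miR-pn2189 6 and 20.

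The sequences that share the 5′ end of amex-miR-pn665 show a difference in length between the libraries. The 23-nucleotide form is the most common sequence printed above, and the shorter forms lack 1 to 3 bases at its 3′ end.
20 nucleotides: aTAGCTTAtcagactgatgt
21 nucleotides: aTAGCTTAtcagactgatgtt
22 nucleotides: aTAGCTTAtcagactgatgttg
23 nucleotides: aTAGCTTAtcagactgatgttga
The 22-nucleotide form had 1244 control reads and 11916 blastema reads, and the 23-nucleotide form had 920 and 24584. The shorter form was thus the more abundant in the control and the longer form in the blastema. The 23-nucleotide form made up 42.5% (39.5 to 45.5) of both in the control, against 67.4% (66.7 to 68.0) in the blastema. For this form the log2 ratio was 5.08 (4.95 to 5.21), against 3.601 (3.48 to 3.72) for 22 nucleotides, 2.59 (2.199 to 2.980) for 21 nucleotides, with 126 and 602 reads, and 3.43 (2.37 to 4.42) for 20 nucleotides, with 16 and 140 reads. The difference between the 23- and the 22-nucleotide form was 1.48 (1.30 to 1.66) on the log2 scale. Among 185 pairs of unmapped sequences in which the longer, of 23 nucleotides, is the shorter plus 1 base at the 3′ end, the median difference was -0.05, with quartiles of -0.44 and 0.43, and 9 pairs had a larger one. Each sequence of these pairs had at least 100 reads, and each pair at least 50 in each library.

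**Figure D4:**
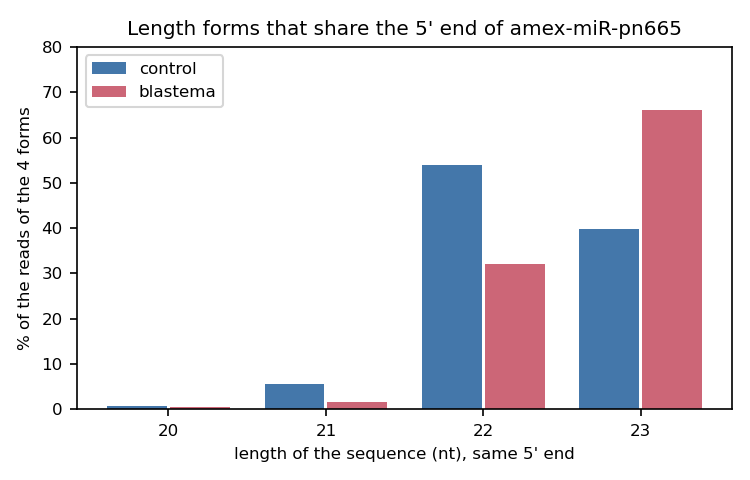
Percent of reads in each of the 4 length forms that start like amex-miR-pn665, for the control (blue) and blastema (red) library, as bars from 0. The 22-nucleotide form leads in the control with 53.9% and the 23-nucleotide form in the blastema with 66.01%.

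The families did not all have a higher share in the blastema. Of the 37 families that reached 10 reads in all, 30 were higher in the blastema by 2-fold or more and 4 were lower by as much. Over all 6846 unmapped families of that size, these shares were 75.1% and 16.3%, so lower families were not more common here than in general. The 4 lower families were named after their values were seen. They are shown with the bases that differ from amex-miR-pn665 in capitals.
amex-miR-pn1451: agcttatcCgCctgCtgttg
amex-miR-pn3106: CgcttatcagactgCtgttgCc
amex-miR-pn1453: CgcttCtcagCctgatgttgac
amex-miR-pn1450: agcttCtcagCctgCtgttgC
For amex-miR-pn1451 there were 112 reads in the control against 10 in the blastema, a log2 ratio of -3.08 (-4.28 to -1.76). amex-miR-pn3106 had 140 and 18 reads, a log2 ratio of -2.58 (-3.53 to -1.57), amex-miR-pn1453 had 84 and 18, and amex-miR-pn1450 had 62 and 18. Every difference shown in capitals in these 4 is a C in place of an A, 3 of them in each of the first 3 families and 4 in amex-miR-pn1450. Most bases of each sequence are otherwise those of amex-miR-pn665.

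**Figure D5:**
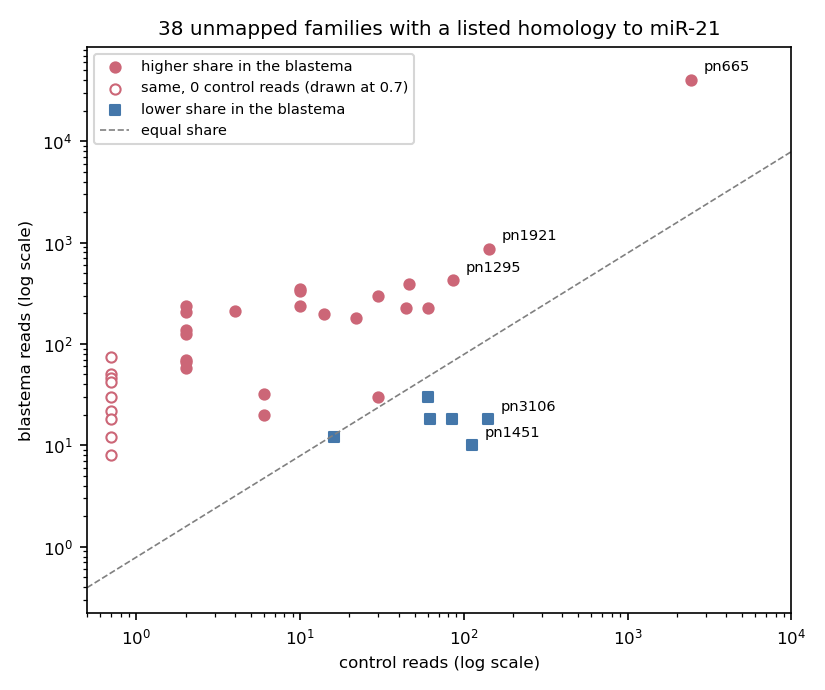
Control reads against blastema reads of the 38 unmapped families with a listed homology to miR-21, on log axes, with the line of equal share. 32 families lie above the line, 9 of them without a control read and drawn as open circles at 0.7, and the 6 squares below it include amex-miR-pn3106 with 140 control and 18 blastema reads.

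The same kind of difference was counted over all sequences of the 38 families. Of the 358 sequences, 337 could be laid without gaps on the most common sequence of amex-miR-pn665 over at least 17 bases with at most 6 differences, and they held 3408 control reads and 45014 blastema reads. Sequences with no difference held 67.7% of these control reads and 82.9% of the blastema reads. Sequences with at least 1 A-to-C difference held 596 control reads, a share of 17.5% (15.7 to 19.4), and 1106 blastema reads, a share of 2.46% (2.26 to 2.67). For T-to-G differences the shares were 7.92% (6.68 to 9.31) and 8.12% (7.76 to 8.48), with intervals that overlap. For C-to-A differences they were 8.45% (7.17 to 9.87) and 4.71% (4.44 to 4.999). T-to-C differences went the other way, with 1.17% (0.718 to 1.81) and 2.13% (1.94 to 2.33). A sequence can carry several kinds and is counted under each. The count was prompted by the 4 lower families, which supply many of its control reads. Without them, an alternative added after seeing the data, the A-to-C shares were 6.58% (5.38 to 7.95) and 2.32% (2.13 to 2.52). Without all 6 families with a log2 ratio below 0 they were 4.70% (3.68 to 5.92) and 2.25% (2.06 to 2.46). With the same 6 left out, the C-to-A shares were 9.61% (8.15 to 11.2) and 4.70% (4.43 to 4.99), also larger in the control. The T-to-G shares were then 8.66% (7.27 to 10.2) and 8.11% (7.76 to 8.47). The difference that remained was thus not particular to A-to-C. The count was made only for the 38 families. Whether families of other microRNAs differ in the same way between the 2 libraries was not tested.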

How the data were processed

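Small RNA of 2 axolotl tail libraries, control and 3 days post injury, was sequenced by the authors on the Illumina Genome Analyzer. The authors trimmed the reads with ShortRead, mapped them to mirBase 21 with Bowtie 1.1.2 allowing 2 mismatches (Bowtie and its version are also in the submitters' processing notes) and enumerated them with Rsamtools. The deposited counts used here are those before normalization, per mirBase entry and per unmapped sequence. All counts of unmapped sequences are even, for a reason that is not stated, so they may not be plain read counts. They entered the library totals and shares as deposited. The study gives 20 to 22 nucleotides as the length of the reads that were mapped, while the unmapped sequences shown here run to 23. The authors state that they kept unmapped sequences above a minimum count in either library. Those in the deposited table have at least 6 reads over both, which reaches below the stated minimum. The authors grouped them at a Levenshtein distance of 4 into families and compared the most common sequence of each with mirBase by Blast. The deposited table also holds normalized values, a score whose method is not stated, and their log2 values. These were not used. A column of log2 fold changes holds the authors' own comparison and was not used.

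Rows labelled miR-21 were taken as members. These members and all lists were chosen with earlier results of these data known. Shares are counts over the sum of known and unmapped counts, with Wilson 95% intervals, and parts of the miR-21 reads have exact Clopper-Pearson intervals. Log2 ratios have 0.5 read added to each count and Poisson intervals. A count of 0 was bounded by 3 reads. Named are entries with at least 1% of the miR-21 reads of either library or the most reads of an arm, labels miR-21 with a letter, the 5 labels of at least 1000 reads nearest in log2 ratio, a wound and inflammation list (miR-31, miR-132, miR-142, miR-146a, miR-146b, miR-155, miR-210, miR-221, miR-222, miR-223), and the 3 families with the most reads. The 20 entries of the near-equal set are described as a set. All further names, and the classes of entries, were set with the values in view. Cell type labels are those listed in the text for muscle, miR-451, miR-144 and miR-486 (erythrocytes), miR-142, miR-223, miR-150 and miR-155 (leukocytes), miR-203, miR-205 and miR-200 (epidermis), miR-9 and miR-124 (neural), and miR-126 (endothelium), with their letter variants. Alternatives were other library totals, TMM factors from edgeR, size factors from DESeq2, 5 reads added, other minimums and folds, and entries left out. The intervals and folds were tested on counts simulated with Poisson error alone. Such counts hold no PCR copies and no spread between libraries, so they cannot show how the intervals perform with these. The tools were edgeR 4.0.16 and DESeq2 1.42.0 in R 4.3.3, and SciPy 1.17.1, NumPy 2.4.6, pandas 2.3.3 and Matplotlib 3.10.9 in Python 3.11.15.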

Additional observations from a re-analysis of the deposited data

How the results depend on the processing

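No paired analysis was possible because each condition is 1 library. The log2 ratios above 0 of the label and of the 3 arm classes kept their direction under each alternative run. In the order label, 5p, 3p and no arm, they were 4.69, 4.83, 4.86 and 4.47 with known reads only as the total, 3.10, 3.25, 3.28 and 2.88 with the muscle labels left out of the total, 2.55, 2.70, 2.73 and 2.33 with TMM, 2.57, 2.71, 2.74 and 2.35 with the size factors of DESeq2, and 3.87, 4.02, 4.05 and 3.65 with the sequencing depth stated in the study. The label gave 5.60 from its entry with the most reads alone, 4.18 without it and 4.48 with the labels miR-21a and miR-21b added. Chosen after seeing the data, it gave 3.83 from the near-equal set alone and 4.46 with the 38 unmapped families added. Without the entry with the most reads of the arm, 5p gave 4.05 and no arm 3.98, and 5p gave 4.49 with the entries without an arm counted in it. Each scaling shifts every ratio alike, and TMM adds -1.94. With TMM, 10 entries were below 0. Of these, ccr-miR-21 was at -0.41, fru-miR-21 at -0.54, hhi-miR-21 at -0.49, tni-miR-21 at -0.10 and pol-miR-21-5p at -0.016, and the others, whose intervals include 0 without TMM, were dre-miR-21 at -1.39, ipu-miR-21 at -1.35, pol-miR-21-3p at -1.05, ola-miR-21 at -0.78 and mdo-miR-21-3p at -0.75. With DESeq2, 9 were below 0, the first 4 at -0.40, -0.52, -0.48 and -0.086, and 5 were with the muscle labels left out of the total. The 3p share of the control and the blastema was 1.14% and 1.29% with entries without an arm counted as 5p, 1.31% and 1.49% without the 3p entry with the most reads, 2.68% and 4.06% without the 5p entry with the most reads, 3.91% and 5.54% in prefixes with both arms, and, chosen after seeing the data, 3.03% and 5.25% without the 5p entries with over 1200 control reads. chi-miR-21-5p held 26.0% and 50.7% of the 5p reads. miR-21 entries at least 2-fold lower numbered 3 with TMM and 3 with DESeq2, against 0. Of all known entries, 5435 were at least 2-fold higher and 336 lower. These were 2803 and 831 with the muscle labels left out of the total, 1888 and 1363 with TMM, 1907 and 1356 with DESeq2 and 1874 and 222 with at least 100 reads, and 155 were at least 4-fold lower. The fish entries and 5 of the 3p entries had few reads, and their intervals are wide.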

Other observations

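Some unmapped sequences read from the end of a miR-21 5p sequence straight into its start. They were searched for in a sequence made of 2 copies, joined end to end, of the 22 bases that follow the first base of amex-miR-pn665, or of these 22 bases plus a C, the base found after them in 75.6% of the reads of unmapped sequences that end 1 base later. With at least 4 bases required on each side of the joint, 16 unmapped sequences matched such a window. They held 20 control reads and 1184 blastema reads, a log2 ratio of 6.19 (5.28 to 7.04 from counts divided by 2), and 11 of them had 0 control reads. Unmapped sequences are listed only with at least 6 reads over both libraries, so these 11 entered the table through the blastema alone, and the ratio is given as a description that this minimum can raise. Of all 59811 unmapped sequences, 33.3% had 0 control reads and 18.9% had 0 blastema reads. The 3 with the most reads are shown with the bases after the joint in capitals.
10 control and 468 blastema reads: cagactgatgttgaTAGCTTAT
4 control and 210 blastema reads: cagactgatgttgaTAGCTTA
2 control and 150 blastema reads: atcagactgatgttgaTAGCTT
The joint without the C was in 6 sequences with 18 control reads and 900 blastema reads, and the joint with it in 10 sequences with 2 control reads and 284 blastema reads. The search was made after these sequences were seen, and it was not made for other microRNAs.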
